A study of Mus musculus with 9 samples.

Results

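Axon guidance ligands and receptors are the secreted, membrane-anchored and transmembrane proteins by which growing axons are attracted or repelled. The genes described here are those of the semaphorins and their plexin and neuropilin receptors, the Eph receptor tyrosine kinases and their ephrin ligands, the Slits and their Robo receptors, and the netrins and netrin-Gs with the netrin receptors Unc5 and Dcc. They were chosen by gene symbol alone, together with a level of at least 1 TPM (a transcript level scaled by transcript length and by the library total) in at least 3 of the 9 samples. Of 71 symbols that matched, 70 passed that level, among 14336 genes that passed it in the whole table of 23412 symbols. Epha1 did not pass, since it reached 1.15 TPM in PFOS P1-7 replicate 3 and no more than 0.65 TPM in any other sample. Epha2, the member with the lowest mean, passed with 5 samples at 1.13 to 1.32 TPM and the other 4 between 0.41 and 0.94 TPM.

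RNA of the hippocampus was sequenced from wild-type mice at postnatal day 21, with 3 samples in each of 3 groups. The pups of the PFOS P1-7 group were exposed on days 1 to 7 to perfluorooctane sulfonate (PFOS), a persistent perfluorinated surfactant, and those of the PFOS P8-14 group on days 8 to 14. Exposure was by suckling from dams that were gavaged with 1 mg/kg of PFOS a day, so the amount that reached each pup is not known from the labels, and the control group is labelled sham. The strain, sex, litter and batch of the samples are not in the labels, which also do not say that each sample is a separate animal, so the p-values measure only the spread between these samples.

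In development, semaphorins signal through plexins, with neuropilins as the binding partners of most secreted class 3 semaphorins. Ephrins on one cell bind Eph receptors on another and can signal in both directions, and Slits repel axons that carry Robo receptors. Netrin-1 attracts through Dcc and repels through Unc5 receptors. In the hippocampus many of these proteins persist after axons have reached their targets, at synapses and on the dendritic spines of pyramidal and granule neurons, and in glia and vessels.

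No member passed an adjusted p of 0.05 in any of the 3 comparisons with limma. In 33 of the 70 members, or 47.1%, against 26.7% of all genes tested, control replicates 2 and 3 were both below the 6 exposed samples and control replicate 1. Among the 33 were the 3 Slits, Robo1 and Robo2, Nrp2, Plxna1 to Plxna4 and Epha3 to Epha7, but not Epha2, Epha8 or Epha10. The ephrins Efna2, Efna3 and Efnb2, and Ntn4 and Ntng2, were among them too. In 4 members, among them Robo2 and Epha7, every exposed sample was higher than every control sample (5.71%, against 4.85% of all genes tested).

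The sequence before the gene start is given for the 3 members with the smallest p in both comparisons with control. They are stretches of the RefSeq promoter tables for build GRCm38.p6, with every base inside the gene's own span left out, so their lengths differ. Capitals mark a GC box (GGGCGG, or CCGCCC on the other strand), the motif of SP-family factors. Robo2 lies at chr16:75447444-75447543 on the minus strand, Epha7 at chr4:28812881-28813065 on the plus strand and Epha4 at chr1:77515108-77515338 on the minus strand.
Robo2: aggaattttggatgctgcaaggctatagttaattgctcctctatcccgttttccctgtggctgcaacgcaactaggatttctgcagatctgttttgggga
Epha7: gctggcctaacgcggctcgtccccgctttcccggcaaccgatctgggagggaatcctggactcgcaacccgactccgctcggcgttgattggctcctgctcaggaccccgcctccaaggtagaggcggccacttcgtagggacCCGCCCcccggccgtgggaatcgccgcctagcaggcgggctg
Epha4: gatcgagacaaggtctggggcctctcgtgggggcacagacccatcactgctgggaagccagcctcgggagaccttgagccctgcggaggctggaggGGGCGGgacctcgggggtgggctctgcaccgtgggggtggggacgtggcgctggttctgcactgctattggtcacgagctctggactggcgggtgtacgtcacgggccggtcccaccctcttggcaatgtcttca

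The stretches of Epha7 and Epha4 each held 1 GC box and were 69.7% and 67.1% G or C, and that of Robo2 held none of these letters and was 46.0% G or C. Over the 250 bases before each listed start, 60 of the 70 members had 76 entries, of which 69.7% held a GC box on either strand, against 32.7% of all 32851 entries of the same length. Those 32851 entries were not limited to genes that passed the level filter, as the members did. A TATA box (TATAAA or TTTATA) stood in 2 member entries (2.63%), against 12.4% of all. The E-box CACGTG stood in 5.26% of member entries and in 6.02% of all. Robo2 has 3 listed starts, Epha7 2 and Epha4 1, and the stretch before the most upstream one is shown. The genes themselves span chr16:73891976-75447443 (Robo2), chr4:28813066-28967503 (Epha7) and chr1:77367182-77515107 (Epha4).

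The libraries differed in ways that touch these genes. Across all genes, the deviation of a library from the gene's mean ran with transcript length, with a Spearman correlation of -0.40 and -0.50 in control replicates 2 and 3, -0.19 in PFOS P8-14 replicate 2 and 0.12 to 0.46 in the other 6 libraries. Members are long: their median longest transcript has 5019 bases, against 3412 for all genes tested, and 59 of 70 lie above that median. Ttr, the defining gene of choroid plexus, was at 9446 to 11626 TPM in 5 libraries and at 35.1 to 107.7 TPM in the other 4. The hippocampal markers were present: each of the 10 dentate granule markers (summed at 252 to 297 TPM in PFOS P1-7, 244 to 288 TPM in PFOS P8-14 and 195 to 284 TPM in control), each of 7 for CA1 and 7 of 8 for CA3 passed the level filter. So did 8 of 9 neocortex and 8 of 10 thalamus markers, so passing it does not set the hippocampus apart. In bulk tissue, fewer cells of a type and less RNA per cell cannot be told apart.

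Levels spanned a wide range. Of the 70 members, 50 averaged at least 10 TPM over the 9 samples, 5 averaged at least 100 TPM, and 10 averaged under 5 TPM. The order at the top was Efnb3 (184 TPM), Epha4 (159.5 TPM), Sema6b (125 TPM), Slit1 (121 TPM) and Sema7a (111 TPM), and the last 3 of these overlap one another within the spread of their samples. At the lower end, Sema3a, Efna4, Ntn5 and Epha2 averaged between 1.04 and 1.49 TPM. Ligands and receptors were both represented at high and low levels.

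Among ligands, values are given in the order of replicates 1, 2 and 3. Slit1, a secreted repellent and the most abundant Slit, was at 148, 139 and 117 TPM in PFOS P1-7, 142, 109 and 136 TPM in PFOS P8-14 and 129, 88.7 and 76.7 TPM in control. The first control sample lay inside the exposed range and the other 2 below it. Sema7a, a semaphorin anchored to the membrane by a lipid, was at 121.5, 122 and 121 TPM in PFOS P1-7, 115, 109 and 124 TPM in PFOS P8-14 and 112, 83.5 and 88.7 TPM in control. Again control replicate 1 stood apart from its group, inside the PFOS P8-14 range. Sema3c, a secreted class 3 semaphorin, was at 30.1, 33.0 and 35.4 TPM in PFOS P1-7, 27.0, 33.1 and 35.1 TPM in PFOS P8-14 and 28.2, 19.5 and 23.0 TPM in control. All PFOS P1-7 samples exceeded all control samples, and 1 PFOS P8-14 sample did not.

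Sema5a, a transmembrane semaphorin that limits synapse number on mouse dentate granule cells, was at 41.3, 45.9 and 43.4 TPM in PFOS P1-7, 39.9, 42.1 and 45.8 TPM in PFOS P8-14 and 41.2, 29.4 and 26.5 TPM in control. Control replicate 1 was level with the lowest exposed samples. Sema4d, a ligand of type B plexins made in oligodendrocytes among other cells, was at 71.5, 62.3 and 69.2 TPM in PFOS P1-7, 64.3, 55.6 and 61.3 TPM in PFOS P8-14 and 58.8, 47.0 and 55.1 TPM in control. Its PFOS P1-7 samples lay above all controls, while its PFOS P8-14 and control ranges overlapped. Sema6b, a transmembrane ligand of type A plexins, was at 145, 124 and 111 TPM in PFOS P1-7, 138, 121 and 126 TPM in PFOS P8-14 and 138, 111 and 114 TPM in control, with ranges that largely coincided.

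Among ephrins, none was higher at an unadjusted p below 0.05 in either comparison with control. Efnb3, a transmembrane ephrin that acts as a midline barrier in the developing spinal cord of mice, was at 195, 177 and 181 TPM in PFOS P1-7, 194, 197 and 172 TPM in PFOS P8-14 and 182, 179 and 176 TPM in control. Efna3, an ephrin of astrocytes that meets EphA4 on spines, was at 94.1, 90.8 and 78.1 TPM in PFOS P1-7, 90.7, 87.4 and 92.0 TPM in PFOS P8-14 and 97.1, 75.9 and 76.2 TPM in control. In both, the exposed samples lay among or close to the controls, though for Efna3 control replicates 2 and 3 were below every exposed sample. The netrins were scarce. Ntn1, the classical attractant, was at 5.57, 5.40 and 5.20 TPM in PFOS P1-7, 6.85, 4.53 and 5.01 TPM in PFOS P8-14 and 5.57, 4.68 and 4.81 TPM in control. Ntng2, a lipid-anchored netrin relative that binds a partner on the opposing synaptic membrane, was higher than any netrin, at 64.7, 56.6 and 51.1 TPM in PFOS P1-7, 63.3, 57.8 and 56.3 TPM in PFOS P8-14 and 74.5, 50.6 and 42.9 TPM in control. Control samples of Ntng2 held both the highest and the lowest value.

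**Figure D1:**
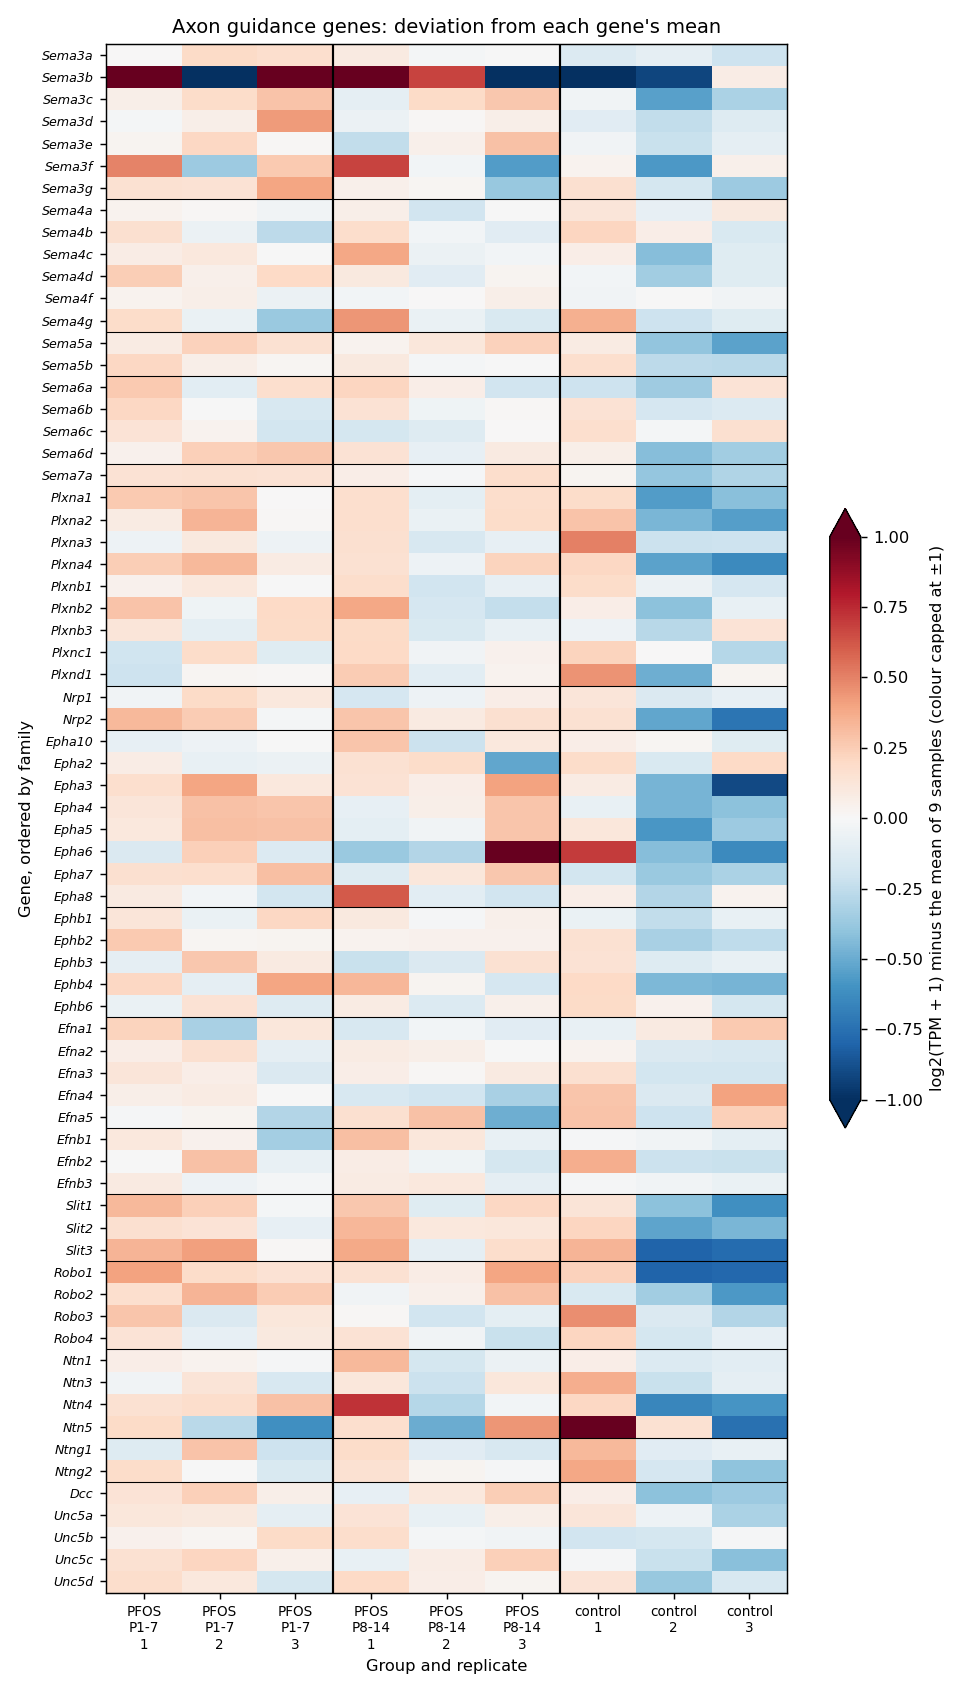
Colour gives log2(TPM + 1) of each of the 70 genes (rows, ordered by family) minus the gene's mean over the 9 samples (columns, PFOS P1-7, PFOS P8-14 and control, replicates 1 to 3). Control replicates 2 and 3 are blue over most Slit, Robo, EphA and plexin rows, control replicate 1 is not, and Sema3b follows the libraries with high Ttr.

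Among receptors, Epha4 was the most abundant. It binds ephrins of both classes and is found on hippocampal spines, and was at 171, 192 and 191 TPM in PFOS P1-7, 148, 163 and 191 TPM in PFOS P8-14 and 149, 114 and 118 TPM in control. All PFOS P1-7 samples exceeded all controls, and PFOS P8-14 replicate 1 was level with control replicate 1. Robo2, a Slit receptor, was at 35.1, 39.7 and 37.2 TPM in PFOS P1-7, 30.3, 32.2 and 38.3 TPM in PFOS P8-14 and 27.9, 24.2 and 20.6 TPM in control. Epha7, a receptor of A-type ephrins, was at 86.9, 87.8 and 95.9 TPM in PFOS P1-7, 71.1, 84.1 and 93.9 TPM in PFOS P8-14 and 68.5, 60.0 and 62.2 TPM in control. For both genes each of the 6 exposed samples lay above each of the 3 controls, with a narrow gap to control replicate 1.

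Plxna1, a signal-transducing receptor for class 3 and class 6 semaphorins, was at 97.7, 98.7 and 81.6 TPM in PFOS P1-7, 91.6, 76.1 and 92.2 TPM in PFOS P8-14 and 92.5, 55.0 and 60.7 TPM in control. Nrp1, the binding receptor of Sema3a, was at 51.1, 59.8 and 56.2 TPM in PFOS P1-7, 46.4, 50.4 and 54.7 TPM in PFOS P8-14 and 56.9, 47.2 and 49.2 TPM in control. Plxna1 thus had its 2 lowest samples in control replicates 2 and 3, and Nrp1 had its lowest in PFOS P8-14 replicate 1. Unc5a, a repulsive netrin receptor, was at 102, 100.5 and 88.0 TPM in PFOS P1-7, 103, 89.3 and 98.0 TPM in PFOS P8-14 and 102, 90.4 and 75.1 TPM in control. Ephb6, an Eph receptor without kinase activity, was at 43.2, 50.2 and 41.4 TPM in PFOS P1-7, 48.0, 41.2 and 47.1 TPM in PFOS P8-14 and 51.9, 46.8 and 40.0 TPM in control. The groups overlapped in both.

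**Figure D2:**
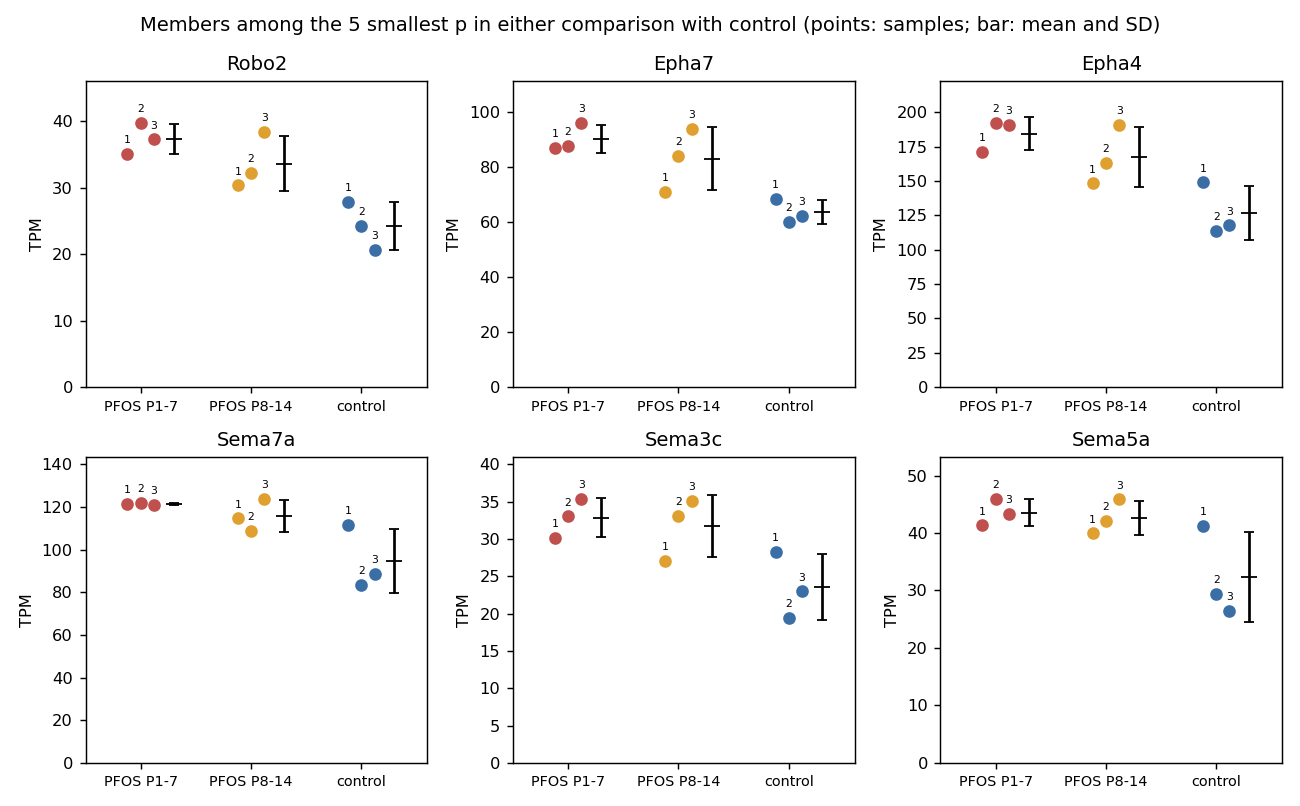
TPM of the 6 members that were among the 5 with the smallest p in either comparison with control, with each sample as a point numbered by replicate, in the order PFOS P1-7, PFOS P8-14 and control, and the mean and SD beside it (n = 3). Control replicate 1 is the highest control in each panel, and reaches the exposed samples in Epha4, Sema7a, Sema3c and Sema5a.

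Exposure on days 1 to 7 was set against control first. Robo2 had the largest evidence of a difference among members, averaging 37.3 ± 2.28 TPM in PFOS P1-7 and 24.2 ± 3.66 TPM in control (SD, n = 3 each), a log2 difference of 0.61 (SE 0.12) on log2(TPM + 1) with adjusted p = 0.181 in limma. Epha7 averaged 90.2 ± 4.96 and Epha4 184.5 ± 11.8 TPM in PFOS P1-7, against 63.6 ± 4.42 and 127 ± 19.4 TPM in control, with log2 differences of 0.50 (SE 0.11) and 0.55 (SE 0.12) and the same adjusted p. For Sema7a the difference was 0.37 (SE 0.11, adjusted p = 0.196) and for Sema3c 0.47 (SE 0.14, adjusted p = 0.207). None of the 70 members passed over all genes, nor did any gene (0%), and 20 members, all higher in PFOS P1-7, had an unadjusted p below 0.05. That is 28.6% of members, against 12.5% of all genes tested on the higher side; on the lower side no member stood, against 5.79% of all genes.

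By family, these 20 were Robo1 and Robo2 of 4 Robos, Slit1 and Slit3 of 3 Slits, Epha3, Epha4, Epha5 and Epha7 of 8 EphA receptors, Ephb1 of 5 EphB receptors, Plxna1 and Plxna4 of 9 plexins, Nrp2 of 2 neuropilins, 6 semaphorins of 20, and Unc5c and Dcc of 5 netrin receptors. No ephrin, netrin or netrin-G was among them. Receptors numbered 12 of 33 and ligands 8 of 35. The median log2 difference was 0.48 for the Slits, 0.34 for the Robos, 0.30 for the EphA receptors and 0.32 for class 3 semaphorins. It was -0.09 for ephrin-As and 0.04 for ephrin-Bs. But Efna1 to Efna4 have transcripts of 1599 to 2363 bases and Efna5 4032, against 3913 to 7328 for the EphA receptors. With each library's trend on length removed, Efna1 to Efna5 differed by 0.04, 0.21, 0.14, -0.01 and -0.23 (-0.09, 0.14, 0.08, -0.13 and -0.20 before). Epha3, Epha4, Epha5 and Epha7 then differed by 0.54, 0.41, 0.35 and 0.35, and the other EphA receptors by -0.12 to 0.08. Without that removal the median log2 difference over all 70 members was 0.19, against 0.09 for all genes tested. Of the members 53, or 75.7%, lay above 0, against 65.5% of all genes. With median-of-ratios scaling the same medians were 0.11 and 0.01.

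Groups did not overlap for 13 members, all higher in PFOS P1-7, which is 18.6% of members against 12.3% of all genes tested. They were Epha3, Epha4, Epha7, Robo2, Unc5b, Unc5c, Sema3a, Sema3c, Sema3d, Sema3e, Sema4d, Sema5a and Sema7a. None was lower without overlap, against 6.56% of all genes. For 39 of the 70 members the 95% interval of the difference lay within a 1.5-fold change in either direction. Efnb3 was among them.

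**Figure D3:**
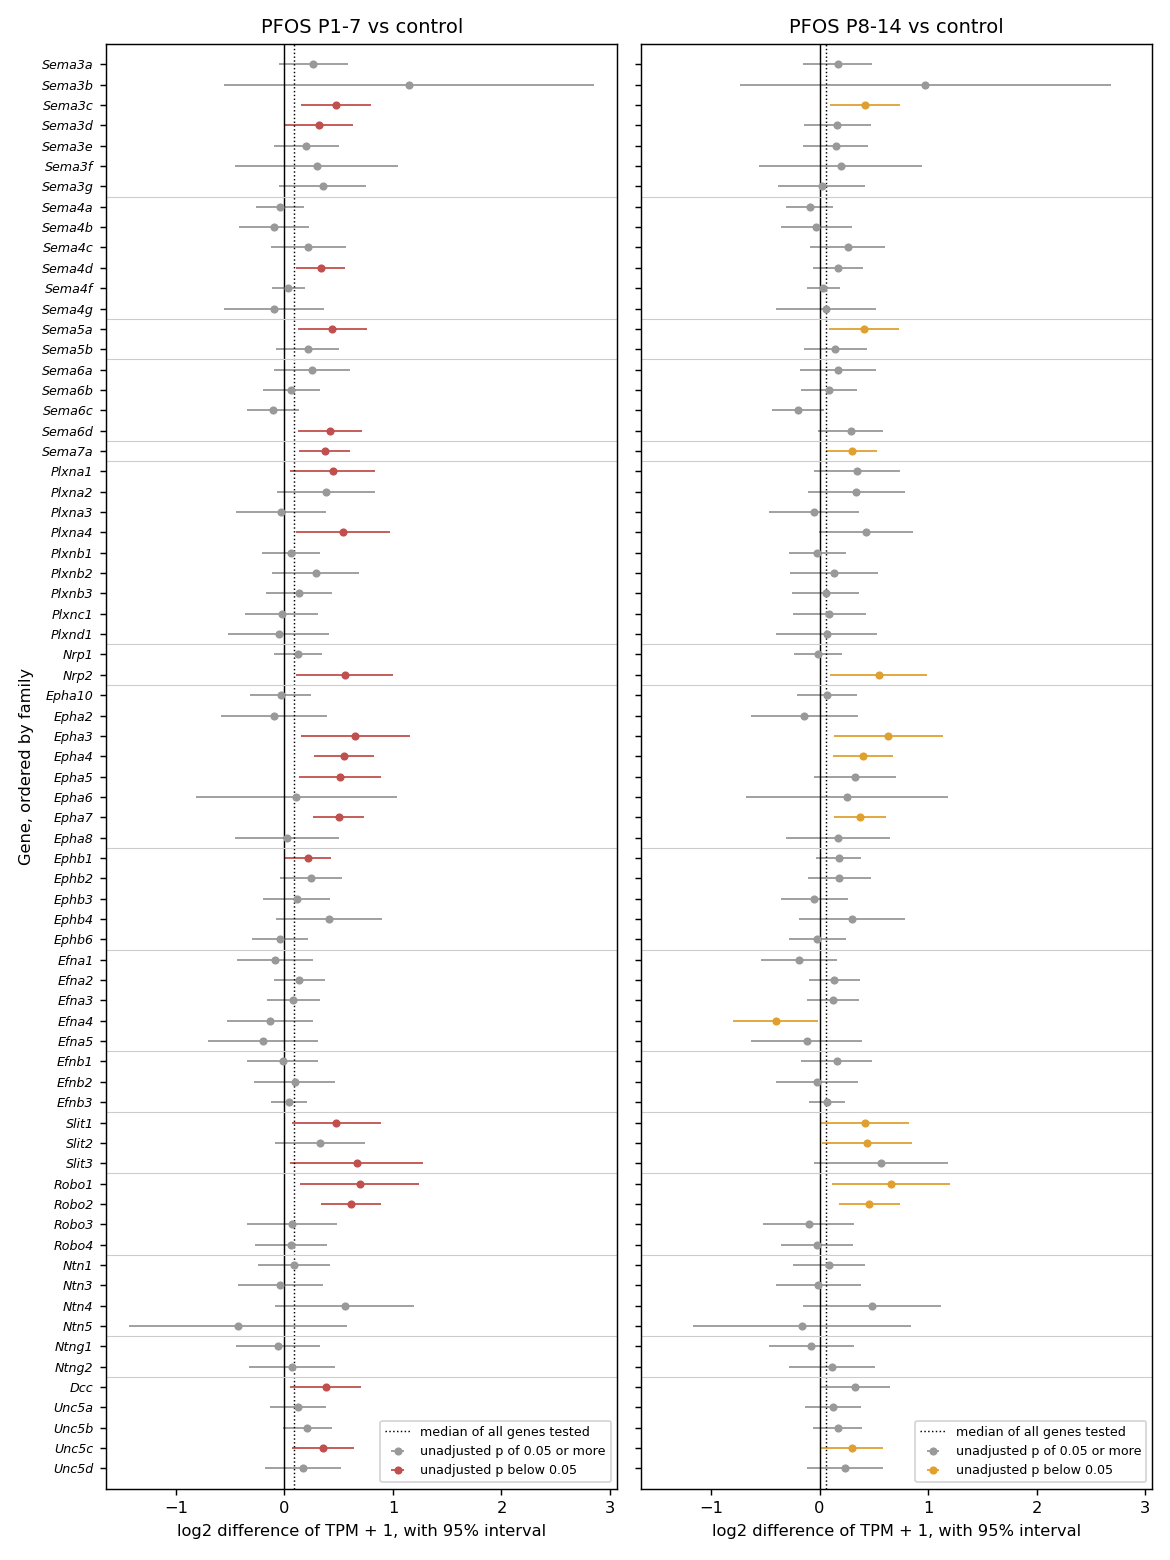
Log2 difference of TPM + 1 with its 95% interval for each member (rows, by family), PFOS P1-7 minus control on the left and PFOS P8-14 minus control on the right. Coloured points have an unadjusted p below 0.05, 20 on the left and 13 on the right, and the dotted line is the median of all genes tested, 0.09 and 0.06.

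The count of 20 rested partly on single libraries. It was 10 when control replicate 2 was left out (14.3% of members, against 9.42% of all genes in either direction) and 11 when control replicate 3 was (15.7%, against 10.1%). It was 12 without PFOS P1-7 replicate 1 (17.1%, against 16.1% of all genes) and also 12 without PFOS P1-7 replicate 2 (17.1%, against 12.7%). These shares of all genes are in either direction, and with no sample left out that share was 18.3%. The 12 members were all higher in each case, and on the higher side 1558 and 1219 of all 14336 genes had such a p. When control replicate 1 was left out, limma called 22 members at an adjusted p below 0.05 (31.4%, against 14.1% of all genes on the higher side), and with array weights, which let noisier libraries count for less, 24 members (34.3%, against 15% of all genes on the higher side). With control replicate 1 left out the median over members was 0.28, and with control replicate 2 left out 0.10.

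Exposure on days 8 to 14 was compared with the same 3 controls, so the 2 comparisons share them. Robo2 averaged 33.6 ± 4.19 TPM in PFOS P8-14 and 24.2 ± 3.66 TPM in control, a log2 difference of 0.46 (SE 0.12, adjusted p = 0.426 in limma). Epha7 differed by 0.37 (SE 0.11), Epha4 by 0.40 (SE 0.12), Sema3c by 0.42 (SE 0.14) and Sema5a by 0.41 (SE 0.14), each with adjusted p = 0.426. No member and no gene passed (0%). At an unadjusted p below 0.05 there were 12 members higher and 1 lower, or 17.1% and 1.43% of members, against 6.33% and 4.65% of all genes tested. The 12 were Robo1, Robo2, Slit1, Slit2, Epha3, Epha4, Epha7, Nrp2, Sema3c, Sema5a, Sema7a and Unc5c.

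The lower member was Efna4, a lipid-anchored ephrin at the low end of the range. It was at 1.52, 1.57 and 1.42 TPM in PFOS P1-7, 1.17, 1.12 and 0.94 TPM in PFOS P8-14 and 1.94, 1.19 and 2.21 TPM in control. Its PFOS P8-14 samples all lay below all others, narrowly so in the case of control replicate 2, and its difference was -0.40 (SE 0.18, adjusted p = 0.449 in limma). The median over all members was 0.15, against 0.06 for all genes, and 52 members lay above 0, or 74.3%, against 62.1% of all genes. With median-of-ratios scaling the medians were 0.10 and 0.01. By family, without that scaling, the median was 0.44 for Slits, 0.29 for EphA receptors, 0.22 for Robos and -0.12 for ephrin-As. With the length trend removed, Efna1 to Efna5 differed by -0.10, 0.19, 0.17, -0.31 and -0.13 (-0.19, 0.13, 0.12, -0.40 and -0.12 before). Groups did not overlap for 5 members that were higher (Epha7, Ephb1, Robo2, Sema3a and Sema3d) and for Efna4, which is 7.14% and 1.43% of members against 7.31% and 5.99% of all genes tested.

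Here too single libraries decided the count of 13. It was 5 when control replicate 2 was left out (7.14% of members, against 4.97% of all genes), and 5 when PFOS P8-14 replicate 3 was (7.14%, against 7.43%). It was 4 when control replicate 3 was left out (5.71%, against 5.92%). Counted in either direction, the members' share in these last 2 cases was no higher than that of all genes. But the 5 and 4 members of these cases were all higher. On the higher side 631 and 436 of all 14336 genes had such a p, which are smaller shares than 7.14% and 5.71%. The count was 28 without control replicate 1 (40.0%, against 30.2% of all genes in either direction). There 18 members were called at an adjusted p below 0.05 (25.7%, against 8.74% of all genes on the higher side). Array weights called 14 (20%, against 4.55% of all genes on the higher side). With control replicate 1 left out the median over members was 0.23, and it was 0.09 when control replicate 2 or PFOS P8-14 replicate 1 was.

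Between the exposure windows, PFOS P8-14 against PFOS P1-7, no member had an unadjusted p below 0.05 in limma, against 0.467% of all genes on the higher and 0.635% on the lower side, or 1.1% in all, and none passed (0% of all genes, smallest adjusted p of a member 0.9998). The median difference was -0.05, with -0.03 for all genes. For 57 of 70 members the 95% interval lay within a 1.5-fold change, and for the other 13 it was wider. The smallest p belonged to Sema3g, a secreted semaphorin known from arteries, at 4.37, 4.26 and 3.00 TPM in PFOS P8-14 and 4.77, 4.73 and 5.83 TPM in PFOS P1-7, with 4.82, 3.61 and 3.04 TPM in control. Its difference was -0.33 (95% interval -0.73 to 0.07). Efna4 followed Sema4d in this order, with -0.27 and -0.16, then Nrp1 with -0.14 and Robo2 with -0.15, and all 4 intervals held 0. Sema3g and Efna4 were the 2 members whose PFOS P8-14 samples all lay below the PFOS P1-7 samples (2.86% of members, against 4.15% of all genes), and no member was higher without overlap, against 1.9% of all genes.

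Summed by family, Slit transcripts came to 211, 204 and 167 TPM in PFOS P1-7, 209, 158 and 193 TPM in PFOS P8-14 and 193, 119 and 108 TPM in control. The 4 Robos came to 104, 94.8 and 96.7 TPM in PFOS P1-7, 88.6, 84.8 and 98.4 TPM in PFOS P8-14 and 97.1, 64.2 and 59.1 TPM in control. Ligand and receptor sums were both lowest in the same 2 libraries, control replicates 2 and 3. EphA receptor sums, at 346, 380.2 and 379 TPM in PFOS P1-7, 308, 327 and 403 TPM in PFOS P8-14 and 321, 240.4 and 247 TPM in control, had the same 2 lowest libraries. Ephrin-A sums ran from 101 to 119.5 TPM in PFOS P1-7, 112 to 114 TPM in PFOS P8-14 and 97.9 to 122 TPM in control, so that control held both ends.

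**Figure D4:**
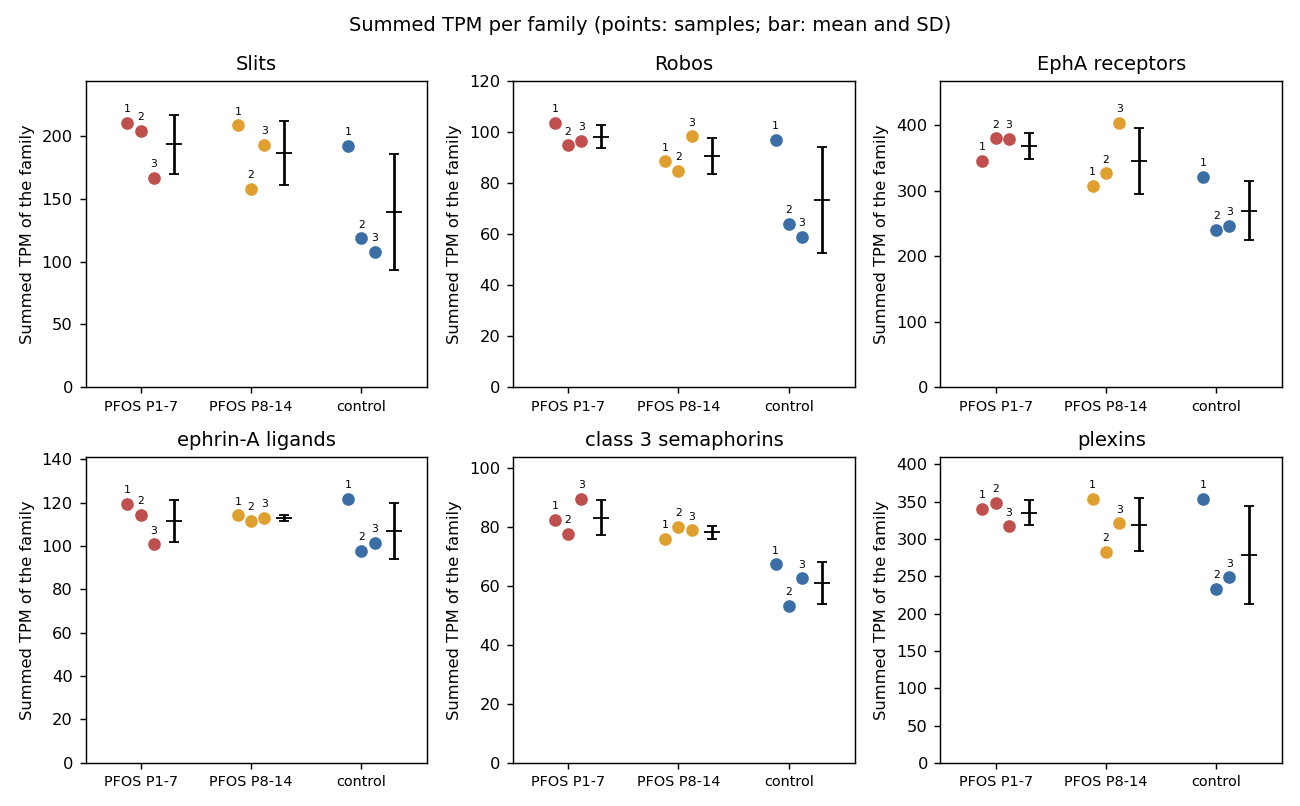
Summed TPM of 6 families, with each sample as a point numbered by replicate and the mean and SD beside it (n = 3), in the order PFOS P1-7, PFOS P8-14 and control. Control replicates 2 and 3 are lowest for Slits, Robos, EphA receptors and plexins, and control replicate 1 lies among the exposed samples there.

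Class 3 semaphorins were the family whose sum separated exposed from control samples, at 82.5, 77.7 and 89.6 TPM in PFOS P1-7, 75.9, 80.01 and 78.9 TPM in PFOS P8-14 and 67.4, 53.3 and 62.6 TPM in control. That sum contains Sema3b, whose level followed Ttr and not the groups. Sema3b was at 4.38 to 12.3 TPM in the 5 libraries with high Ttr and at 1.11 to 1.71 TPM in the other 4. Without Sema3b the class 3 sum was 71.2, 76.3 and 79.1 TPM in PFOS P1-7, 63.6, 72.8 and 77.8 TPM in PFOS P8-14 and 66.3, 51.6 and 58.2 TPM in control, and PFOS P8-14 replicate 1 then lay below control replicate 1. By library Sema3b was at 11.3, 1.37 and 10.5 TPM in PFOS P1-7, 12.3, 7.18 and 1.15 TPM in PFOS P8-14 and 1.11, 1.71 and 4.38 TPM in control. It had the largest point difference of any member, 1.15 (SE 0.76) in PFOS P1-7 and 0.98 (SE 0.76) in PFOS P8-14, with adjusted p = 0.419 and 0.583 in limma.

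Sema6a, singled out after its values were seen, was the other member higher in each of the 5 libraries with high Ttr than in each of the other 4, at 30.6 to 35.3 TPM against 22.6 to 27.0 TPM. These 2 are 2.86% of members, against 4.12% of all genes tested. The 18 choroid plexus markers were all tested, with a summed level of 187 to 13034 TPM in PFOS P1-7, 272 to 11160 TPM in PFOS P8-14 and 160 to 11064 TPM in control, so both kinds of library stood in every group. With the mean of those markers as a covariate, 20 members had an unadjusted p below 0.05 in PFOS P1-7 against control. In PFOS P8-14 there were 18. These are 28.6% and 25.7% of members, against 23.1% and 15.5% of all genes in either direction. Ntn5, a low netrin with the second widest range, was at 1.54, 0.84 and 0.45 TPM in PFOS P1-7, 1.49, 0.57 and 2.01 TPM in PFOS P8-14 and 4.03, 1.47 and 0.32 TPM in control. Epha6, also picked out after its values were seen, reached 39.8 TPM in PFOS P8-14 replicate 3 and 30.8 TPM in control replicate 1, and lay between 11.6 and 22.1 TPM in the other 7 libraries.

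Control replicate 1 was often the highest control. For 60 of 70 members it was above both other controls (85.7%, against 52.2% of all genes tested). In no member were control replicates 2 and 3 both above all 7 other samples (against 9.31% of all genes). By contrast, 4 members, Robo2, Epha7, Sema3a and Sema3d, had all 6 exposed samples above all 3 controls (5.71%, against 4.85% of all genes). Slit3 and Robo1, chosen here after their values were seen, were among the 33 members with control replicates 2 and 3 below the other 7 samples. Slit3 was at 48.0, 50.4 and 37.9 TPM in PFOS P1-7, 49.4, 35.4 and 42.6 TPM in PFOS P8-14 and 47.8, 21.2 and 21.7 TPM in control. Robo1 was at 33.7, 28.9 and 28.0 TPM in PFOS P1-7, 28.3, 26.7 and 33.6 TPM in PFOS P8-14 and 29.9, 14.1 and 14.3 TPM in control. In these genes control replicate 1 was level with the exposed samples, while control replicates 2 and 3 lay close to each other.

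**Figure D5:**
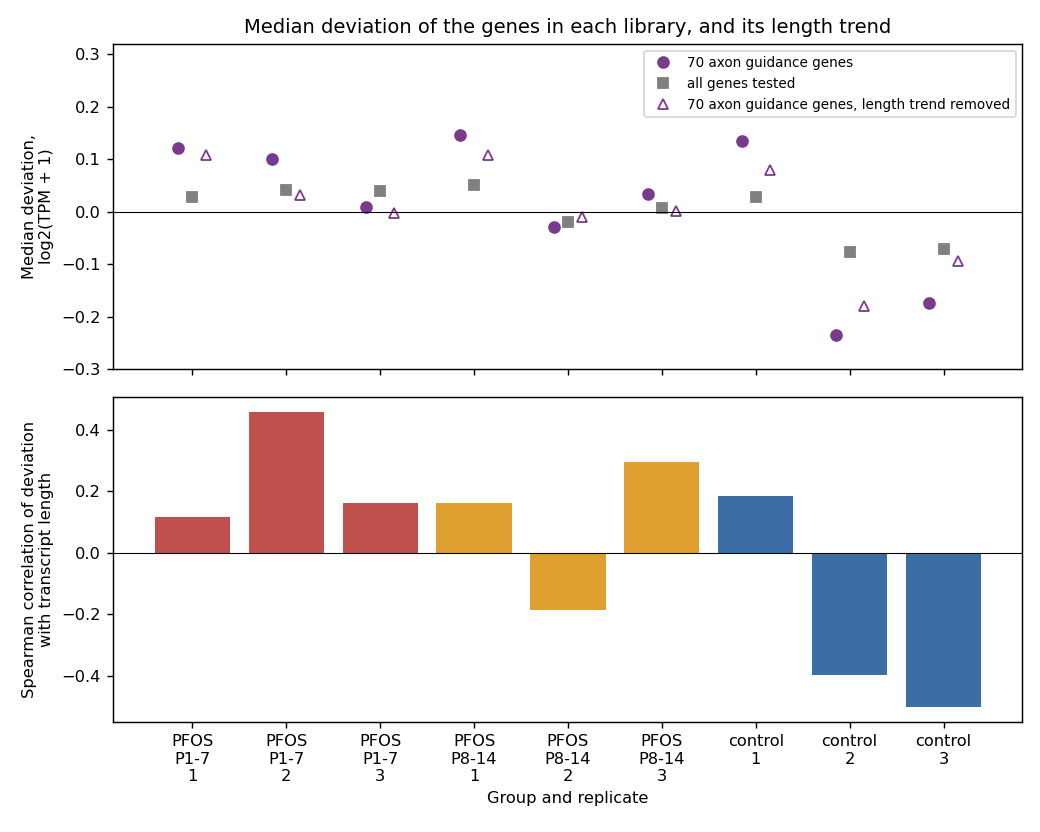
Upper panel: median deviation of log2(TPM + 1) from each gene's mean in each library, for the 70 members (circles), all genes tested (squares) and the members after removal of the length trend (triangles). Lower panel: Spearman's correlation across genes between that deviation and transcript length, which is most negative in control replicates 2 and 3, the libraries where the members' median is lowest (-0.23 and -0.17).

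Transcript length moved with these values. Across the 70 members, Spearman's correlation between transcript length and the log2 difference was 0.44 in PFOS P1-7 and 0.43 in PFOS P8-14 against control, as a description over genes that share the same libraries. The 11 members shorter than the median of all genes had a median difference of 0.04 in PFOS P1-7 and 0.11 in PFOS P8-14, and the 59 longer ones 0.22 and 0.17. The 20 members with an unadjusted p below 0.05 in PFOS P1-7 had a median length of 6584 bases, against 4599 for the other 50. After each library's trend on length was removed, the correlation across members was 0.14 and 0.13, the member medians were 0.10 in PFOS P1-7 (all genes 0.08) and 0.08 in PFOS P8-14 (all genes 0.05), and 16 and 10 members had an unadjusted p below 0.05 (22.9% and 14.3%, against 14.4% and 9.94% of all genes). Robo2 then differed by 0.43 and 0.30 (0.61 and 0.46 before) and Epha4 by 0.41 and 0.30 (0.55 and 0.40 before). Epha7 differed by 0.35 and 0.26 (0.50 and 0.37 before) and Sema5a by 0.24 and 0.22 (0.44 and 0.41 before). For Sema3c the differences were 0.37 and 0.35 (0.47 and 0.42 before), and for Sema7a they stayed at 0.37 and 0.30.

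Without control replicate 1, the 22 members called in PFOS P1-7 and the 18 in PFOS P8-14 were all higher, or 31.4% and 25.7% of members, against 14.1% and 8.74% of all genes tested. All 18 were among the 22. In those controls the length trend and the exposure cannot be told apart, since both remaining controls have the most negative trend. With that trend removed as well, 12 and 6 members were called, against 7.20% and 4.58% of all genes on the higher side. The 6 called in both exposure groups were Robo1, Slit3, Nrp2, Epha3, Plxna4 and Sema7a. Robo1 then differed by 0.78 (SE 0.12) in both, with adjusted p = 0.00948 in PFOS P1-7 and 0.0164 in PFOS P8-14, Slit3 by 0.90 and 0.83 (SE 0.14), and Sema7a by 0.50 and 0.43 (SE 0.07). Nrp2, which binds Sema3f and is found in the hippocampal formation, differed by 0.59 and 0.62 (SE 0.11). These calls leave out a control sample that has no label to set it apart, and rest on 2 controls.

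Cell type markers also differed between control libraries. Mean deviation of the oligodendrocyte markers was -0.72 in control replicate 1, against 0.10 and 0.20 in control replicates 2 and 3, and that of the dentate granule markers was -0.46 in control replicate 3, against -0.02 and -0.07 in control replicates 1 and 2. Oligodendrocyte precursor markers were at 0.09 in control replicate 1 and at -0.33 and -0.10 in replicates 2 and 3. CA1 pyramidal markers were at 0.08 in control replicate 1 and at -0.19 and -0.21 in replicates 2 and 3, and pericyte markers at 0.33, -0.07 and -0.08. In the same order, neocortex markers were at 0.15, -0.08 and -0.15, and astrocyte markers at 0.12, -0.01 and -0.21. CA3 markers went the other way, at -0.18, -0.15 and -0.01, and thalamus markers were level, at -0.08, -0.10 and -0.09. The other marker lists are not given here. All 12 oligodendrocyte, 10 dentate granule, 10 astrocyte, 9 precursor, 7 CA1 and 7 pericyte markers were tested. For neocortex 8 of 9 were, for CA3 7 of 8 and for thalamus 8 of 10. The part of these cell types in the differences of the guidance genes was not tested.

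Other genes of the pathway were counted in the same way. Of 34 tested co-receptors and further ligands, none passed in limma in any of the 3 comparisons, and 8 in PFOS P1-7 and 2 in PFOS P8-14 were higher at an unadjusted p below 0.05, with none lower and medians of 0.17 and 0.13. These are 23.5% and 5.88% of the list, against 12.5% and 6.33% of all genes. Ptprd, a receptor phosphatase of synapse formation, was at 65.9, 69.5 and 68.0 TPM in PFOS P1-7, 62.7, 60.1 and 68.2 TPM in PFOS P8-14 and 55.6, 51.0 and 50.9 TPM in control. All 6 exposed samples exceeded all controls, with differences of 0.36 (SE 0.08, adjusted p = 0.181) and 0.27 (SE 0.08, adjusted p = 0.426). Flrt2, a ligand of Unc5 receptors, differed by 0.36 (SE 0.12) in PFOS P1-7, and Cntn1, a lipid-anchored adhesion molecule of axons, by 0.29 (SE 0.13) in PFOS P8-14. With the length trend removed, Ptprd differed by 0.17 and 0.09, Flrt2 by 0.20 in PFOS P1-7 and Cntn1 by 0.20 in PFOS P8-14. The counts of this list are given only without that removal.

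Of 63 tested intracellular effectors none passed either, with 8 higher and 2 lower in PFOS P1-7 and 2 higher in PFOS P8-14 at an unadjusted p below 0.05, and medians of 0.13 and 0.08. The higher ones are 12.7% and 3.17% of the list, against 12.5% and 6.33% of all genes. Dock1, an exchange factor for Rac, was at 10.8, 11.2 and 12.5 TPM in PFOS P1-7, 11.1, 7.69 and 9.08 TPM in PFOS P8-14 and 8.45, 7.19 and 7.33 TPM in control. Its PFOS P1-7 samples lay above all controls (0.53, SE 0.14, adjusted p = 0.182 in limma). Cdk5, a kinase of neuronal migration and semaphorin signalling, was lower in every PFOS P1-7 sample, at 103, 99.6 and 91.5 TPM, than in every control sample, at 111, 116 and 112 TPM (-0.20, SE 0.07, adjusted p = 0.217). Abl2, a kinase downstream of several guidance receptors, differed by 0.35 (SE 0.15) in PFOS P8-14. With the length trend removed, Dock1 differed by 0.38 and Cdk5 by -0.12 in PFOS P1-7, and Abl2 by 0.17 in PFOS P8-14.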

How the data were processed

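The authors deposited a table of TPM, in which every sample has a column that sums to the same total within rounding. The submitters' processing notes name bcl2fastq, fastp (0.21.0), STAR (2.5.3a), RSEM (1.3.3) and build mm10, and per the labels' protocols the mRNA libraries were stranded. Which annotation was used is not given in the sources used here. Depth cannot be read from TPM and is unknown. From 13810 to 14220 symbols reached 1 TPM in a library.

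The 14336 genes were fitted in R 4.3.3 with limma 3.58.1 on log2(TPM + 1), as 3 group means with a mean-variance trend. P-values are two-sided and were adjusted by Benjamini and Hochberg's method across those genes, with a threshold of 0.05. Log2 differences understate changes of low genes. The fit was tested on simulated data.

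Members, lists and tests were chosen with earlier results of these data known. Given sample by sample were the 5 members with the smallest p per comparison, the most abundant of each family and the 2 with the widest range. Other members with sample values are marked as chosen after their values were seen. Each pathway list is represented by its 2 smallest p in each comparison with control, except for 1 gene that is not reported here. Transcript length is that of the longest GENCODE M21 transcript of a symbol (99.3% of genes), and its trend was removed per library by loess (span 0.3).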

Additional observations from a re-analysis of the deposited data

How the results depend on the processing

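The counts of members at an adjusted p below 0.05 and at an unadjusted p below 0.05, and the median member difference, were recomputed in each comparison with the pseudocount at 0.1 or 5, all symbols kept or only those reaching 5 TPM, median-of-ratios scaling, the replicate block, only the groups compared, array weights, moderation without a trend, a choroid plexus covariate, removal of the length trend, and each sample left out. No median changed sign, and none moved by more than the pooled SD of a library's member median, 0.16. Limma array weights gave 24 members at an adjusted p below 0.05 and 31 at an unadjusted p below 0.05 in PFOS P1-7 against control, and 14 and 27 in PFOS P8-14 against control, where without them there were 0 and 20, and 0 and 13. The adjusted counts with weights are 34.3% and 20% of members, against 15% and 4.55% of all genes on the higher side. The unadjusted counts with weights are 44.3% and 38.6% of members, against 37.3% and 29.7% of all genes in either direction. With samples left out, the adjusted count ran from 0 to 22 in PFOS P1-7 and from 0 to 18 in PFOS P8-14. The 22 and 18 came without control replicate 1 (31.4% and 25.7% of members, against 14.1% and 8.74% of all genes on the higher side). The unadjusted count ran from 10 to 29 and from 4 to 28. The 29 and 28 are 41.4% and 40.0% of members, against 34.0% and 30.2% of all genes in either direction. Without control replicate 1 and with the length trend removed, the adjusted counts were 12 and 6. These are 17.1% and 8.57% of members, against 7.20% and 4.58% of all genes on the higher side. Between the exposure windows the unadjusted count was 0, and ran from 0 to 1 with samples left out; it was 1 with array weights, 1 with the replicate block and 1 with the block and the length trend removed. Correlations of deviations ran from -0.47 to 0.53 for same-numbered samples and from -0.60 to 0.67 for differently numbered ones. Whether samples of 1 number share a litter or batch cannot be read from these values. The replicate block gave 23 and 15 members at an unadjusted p below 0.05 against control and 0 at an adjusted p. These are 32.9% and 21.4% of members, against 21.7% and 14.8% of all genes in either direction. A choroid plexus covariate together with removal of the length trend was added after the data were seen. It gave 15 and 11 at an unadjusted p below 0.05 (21.4% and 15.7%, against 16.8% and 11.8% of all genes in either direction). Of the values of named members under these settings none changed sign, 270 stayed on their side of an adjusted p of 0.05 and 23 newly passed it, all with array weights or without control replicate 1. The cause was not tested. Depth, which is unknown, and 3 samples per group limit what can be seen: the median standard error of a member's difference was 0.15.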
